A study of Rattus norvegicus with 24 samples.

Results

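AH236 given in fresh growth medium was compared with DMSO in fresh growth medium in rat primary cortical cells. The comparison takes 6 of the 24 libraries of the series: the 3 whose titles name AH236 and the 3 whose titles name DMSO, with no glutamate in the title. AH236 is known from the labels only as a code name, and no dose, timing, structure or target is given for it. DMSO is a common solvent and stands here as the control. Whether the AH236 cultures also received DMSO is not stated. All cultures had grown for 8 days before the medium was exchanged and were then imaged for 4 h. When the RNA was taken, the rat strain and age, and whether replicates came from separate cultures are not given. P-values therefore measure only the spread between libraries, which the main fit pools over all groups of the series. The library titled DMSO with no number is called DMSO replicate 1.

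The series concerns excitotoxicity, in which excess glutamate overactivates its receptors, floods neurons with calcium and can kill them. Neuronal transcription responds quickly to receptor activity and calcium entry, so cultures left without added glutamate are the baseline from which an agent's own effect on transcription is read. Primary cortical cultures usually hold excitatory and inhibitory neurons together with glia. The count table carries Ensembl gene IDs only, and 0 of its 32754 IDs could be matched to a symbol with the tables used here. The cell types could therefore not be checked against their markers, no gene family can be described, and no sequence is tied to a result. In bulk RNA of this kind, fewer cells of a type and less RNA per cell cannot be told apart.

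DMSO replicate 1 stood apart from the other 5 libraries, and the counts of calls and the values of named IDs are given with and without it. The 6 libraries held between 26008125 and 33372053 counts. The coefficient of biological variation, the relative spread between replicates beyond counting noise, was 5.67% within AH236 and 16.2% within DMSO, and 4.88% between DMSO replicates 2 and 3. Levels are given as CPM, the counts of a gene scaled to its library's total multiplied by that library's TMM factor. TMM is a scaling that assumes that most genes do not change. On the log2 scale of CPM, AH236 libraries correlated with one another at 0.9936 to 0.995, and DMSO replicate 2 with replicate 3 at 0.994. DMSO replicate 1 correlated with the other 2 DMSO libraries at 0.9823 and 0.9828. It was the highest or lowest of the 6 libraries for 59.7% of genes, against 23.1% to 32.9% for the other 5. A technical cause for this was not tested.

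AH236 shifted many transcripts by a small amount. With all 24 libraries in the fit, 883 genes were higher and 788 lower with AH236 than with DMSO (edgeR quasi-likelihood test, Benjamini-Hochberg adjusted p under 0.05), which were 5.55% and 4.95% of the 15908 genes tested. Without DMSO replicate 1, 859 were higher and 547 lower, or 5.33% and 3.39% of 16119. Both fits called 597 of the same genes higher (3.75%) and 380 lower (2.39%), and 0 genes were called in opposite directions. These shared calls were 67.6% of the higher and 48.2% of the lower calls made with all libraries, and 69.5% of each made without DMSO replicate 1. The fits have 5 of the 6 compared libraries in common, so the second is no independent test of the first.

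Among the genes called in both fits, the median log2 fold change was 0.31 for those higher and -0.43 for those lower, and 0.27 and -0.38 without DMSO replicate 1. At least 1.5-fold in both fits, 61 rose and 85 fell. At least 2-fold in both, 13 rose and 28 fell. All 3 AH236 libraries lay above all 3 DMSO libraries for 579 of the 597 genes called higher, and below all 3 for 362 of the 380 called lower. The genes called higher together took 13.8%, 13.9% and 13.8% of the counts in AH236 replicates 1 to 3, and 11.3%, 12.1% and 12.1% in DMSO replicates 1 to 3. Those called lower took 1.51%, 1.57% and 1.54% in AH236 and 2.18%, 1.93% and 1.99% in DMSO. As the genes were picked on these libraries, the shares are descriptive.

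**Figure D1:**
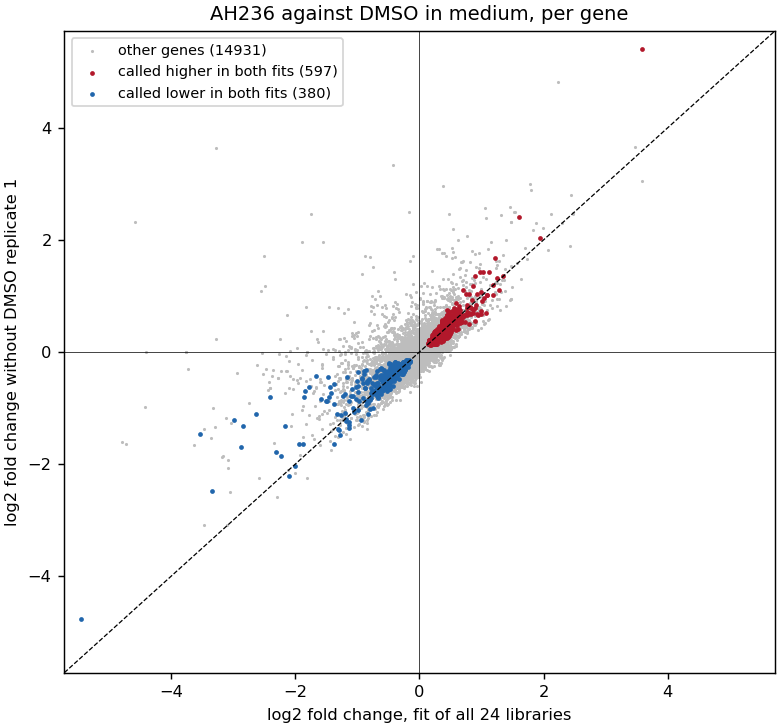
Log2 fold change of each gene for AH236 against DMSO in medium, from the fit of all 24 libraries (x axis) and from the fit without DMSO replicate 1 (y axis), with the line of equality dashed; red and blue points are the 597 genes called higher and the 380 called lower in both fits. Many grey points below 0 on the x axis lie near or above 0 on the y axis. Grey points include genes called in neither fit, so not all of these were called falls that rested on DMSO replicate 1.

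How many genes were called depended on which libraries entered the fit. The fit of all 24 libraries shares 1 spread per gene over 8 groups. The coefficient of biological variation was 16.2% within DMSO in medium, and 5.14% to 6.84% within the other groups in which it was taken. When the 6 compared libraries were fitted alone, 53 genes were called higher and 34 lower. Of these, 52 and 34 were among the genes called in both larger fits. Their median log2 fold change was 0.53 for those higher, with a range of 0.34 to 1.28, and -0.58 for those lower, with a range of -0.36 to -1.18. With the compared groups alone and DMSO replicate 1 left out, 730 genes were higher and 475 lower, and all 53 and 34 were called again in the same direction.

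Single libraries moved the counts further. In the shared fit, 557 genes were called higher without AH236 replicate 1, and between 595 and 1050 with any other of the 6 libraries left out. Lower calls numbered 377, 513 and 453 without AH236 replicates 1, 2 and 3, against 547, 1067 and 1179 without DMSO replicates 1, 2 and 3. The calls common to fits with and without DMSO replicate 1 fell to 356 higher and 226 lower when DMSO replicate 2 was also dropped, and to 255 and 117 without DMSO replicate 3. Without AH236 replicate 1, 403 and 240 were common.

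**Figure D2:**
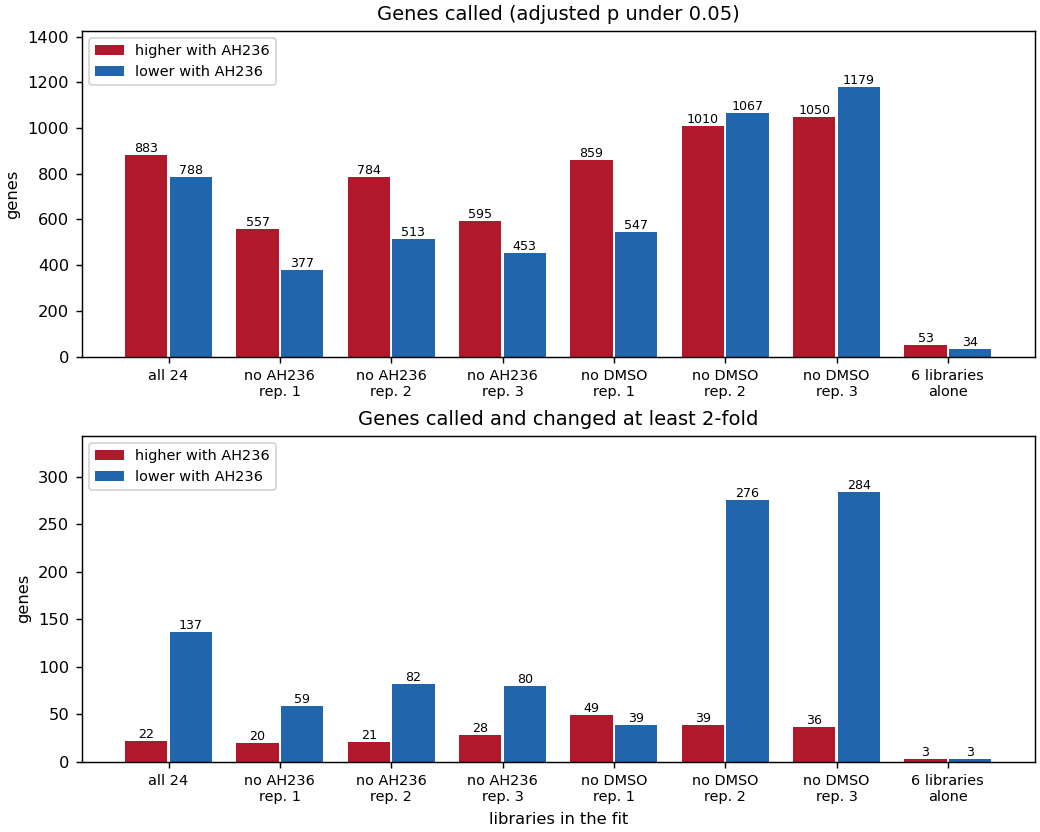
Numbers of genes called higher (red) and lower (blue) with AH236 than with DMSO in medium, at adjusted p under 0.05 (top) and also at least 2-fold (bottom), for the fit of all 24 libraries, for fits that leave out 1 of the 6 compared libraries, and for those 6 fitted alone. Falls of at least 2-fold number 137 with all libraries, 39 without DMSO replicate 1 and 284 without DMSO replicate 3.

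Large falls rested mostly on DMSO replicate 1. With all libraries, 137 genes fell at least 2-fold and 22 rose at least 2-fold. DMSO replicate 1 had the highest level of the 6 libraries for 123 of the 137. Without it, 52 of the 137 were still called lower and 28 of them still by at least 2-fold, and their median log2 fold change was -0.81 in place of -1.59. Of the 22 that rose, 16 were still called and 13 still at least 2-fold, and the median was 1.24 in place of 1.23. In the fit without DMSO replicate 1, 39 genes fell and 49 rose by at least 2-fold, so the order of falls and rises turned. Falls of at least 2-fold numbered 59, 82 and 80 without AH236 replicates 1 to 3, and 276 and 284 without DMSO replicates 2 and 3. Rises numbered 39 and 36 without DMSO replicates 2 and 3.

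Of the genes averaging 1 log2 CPM or more that were called in both fits and in which all AH236 libraries lay beyond DMSO replicates 2 and 3, 584 rose and 344 fell. The smaller of the 2 fold changes of a gene ran from 0.13 to 1.61 on the log2 scale for the rises, with a median of 0.26, and from 0.14 to 1.46 in size for the falls, with a median of 0.34. The 2 IDs at the top in each direction are described next. Some genes of lower mean level changed by more.

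ENSRNOG00000016163 rose most. It had 6.78, 6.84 and 6.43 CPM in AH236 replicates 1 to 3, against 4.08, 1.64 and 0.921 CPM in DMSO replicates 1 to 3. The groups did not overlap, AH236 libraries lay close together, and DMSO replicate 1 was nearest to them. The log2 fold change was 1.61 ± 0.34 (SE; edgeR adjusted p = 0.00609), and 2.41 ± 0.34 without DMSO replicate 1 (edgeR adjusted p = 0.000179). The other agents in medium averaged 9.80 ± 3.98 CPM in IS141 and 8.03 ± 1.50 CPM in AH609 cultures (SD, n = 3 each). In glutamate it averaged 23.5 ± 1.24 CPM in AH236 and 20.9 ± 0.837 CPM in DMSO cultures (SD, n = 3 each).

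ENSRNOG00000007816 was a low-level ID that rose with little influence of DMSO replicate 1. It had 0.798, 1.03 and 1.01 CPM in AH236 and 0.439, 0.465 and 0.307 CPM in DMSO replicates 1 to 3. These levels rest on 24, 37 and 34 counts in AH236 and on 13, 13 and 10 counts in DMSO. The ID met the naming rule, at a mean of 1.01 log2 CPM over all 24 libraries, only through its higher levels in glutamate libraries. All AH236 libraries lay above all DMSO libraries. The log2 fold change was 1.24 ± 0.27 (SE; edgeR adjusted p = 0.00353), and 1.31 ± 0.32 without DMSO replicate 1 (edgeR adjusted p = 0.008). The other agents in medium averaged 1.1 ± 0.311 CPM in IS141 and 0.8 ± 0.202 CPM in AH609 cultures (SD, n = 3 each), also above the DMSO mean of 0.403 CPM. In glutamate this ID averaged 4.79 ± 0.185 CPM in AH236 and 5.40 ± 0.544 CPM in DMSO cultures (SD, n = 3 each).

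ENSRNOG00000008676 had the largest fall. Its levels were 0.964, 1.68 and 1.66 CPM in AH236 and 42.9, 4.11 and 3.93 CPM in DMSO replicates 1 to 3. The groups did not overlap, but DMSO replicate 1 lay far above the other DMSO libraries. The log2 fold change was -3.54 ± 0.79 (SE; edgeR adjusted p = 0.00858) with it and -1.46 ± 0.32 without it (edgeR adjusted p = 0.00796). AH236 was also below the other agents, which averaged 8.32 ± 0.474 CPM in IS141 and 5.23 ± 1.73 CPM in AH609 cultures in medium (SD, n = 3 each). Glutamate libraries held far more of it, at 136 ± 14.9 CPM in AH236 and 145 ± 9.47 CPM in DMSO cultures (SD, n = 3 each). In medium DMSO replicate 1 was thus the library nearest to the glutamate level.

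ENSRNOG00000030111 fell as well, and its mean level was lower with AH236 than with DMSO in both media. It had 1.80, 1.96 and 2.28 CPM in AH236 and 17.2, 4.61 and 5.46 CPM in DMSO replicates 1 to 3. Again no library of one group reached the other, and DMSO replicate 1 was the highest. The log2 fold change was -2.17 ± 0.40 (SE; edgeR adjusted p = 0.00221), and -1.32 ± 0.22 without DMSO replicate 1 (edgeR adjusted p = 0.00019). In glutamate the levels were 2.07 ± 0.551 CPM with AH236 and 4.83 ± 1.01 CPM with DMSO (SD, n = 3 each). That difference was -1.24 ± 0.44 (SE; edgeR adjusted p = 0.0841), and -1.24 ± 0.21 without DMSO replicate 1 in the shared fit (edgeR adjusted p = 0.000191). The other agents in glutamate averaged 3.15 ± 0.295 CPM in IS141 and 2.3 ± 0.778 CPM in AH609 cultures (SD, n = 3 each). A low level in glutamate was thus not particular to AH236.

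All 4 calls were lost when the compared groups were fitted alone, at nearly the same fold changes. The log2 fold change there was 1.59 for ENSRNOG00000016163 (edgeR adjusted p = 0.204), 1.23 for ENSRNOG00000007816 (adjusted p = 0.106), -3.56 for ENSRNOG00000008676 (adjusted p = 0.29) and -2.18 for ENSRNOG00000030111 (adjusted p = 0.177). With those groups alone and DMSO replicate 1 left out, all 4 were called, with edgeR adjusted p = 8.25e-06, 0.0331, 0.000396 and 0.000135 in the same order. Leaving out DMSO replicate 1 was the step that moved them most, except for ENSRNOG00000007816, whose log2 fold change ran from 1.07 to 1.35 with 1 library left out.

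**Figure D3:**
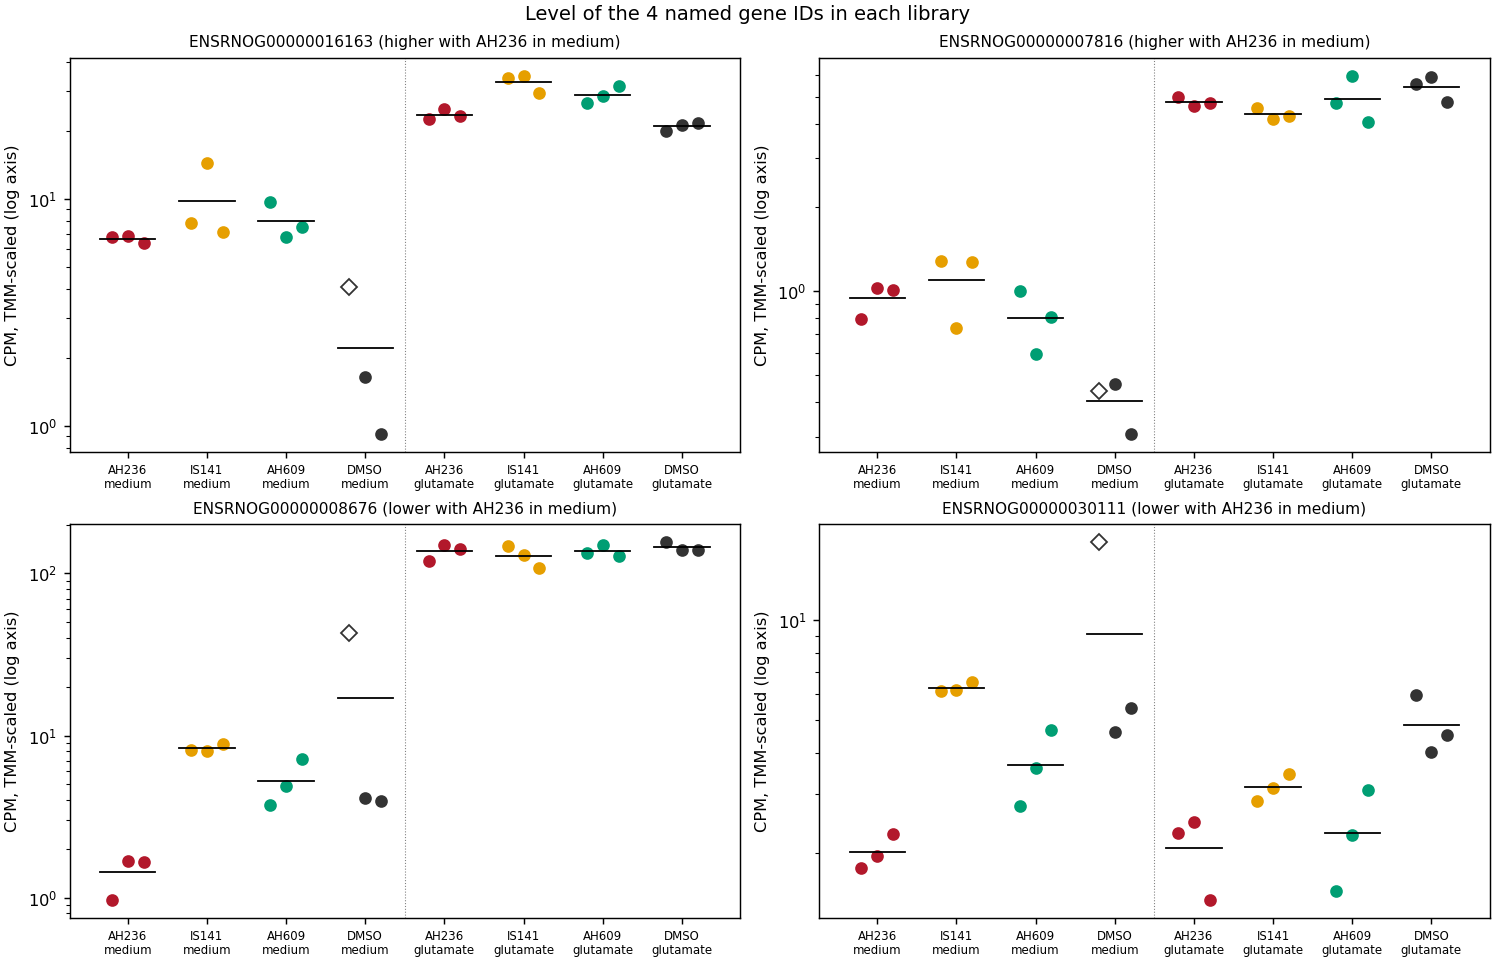
Level of the 4 named IDs in each of the 24 libraries, as TMM-scaled CPM on a log axis, by treatment in medium (left of the dotted line) and in glutamate (right); points are libraries, bars are means of 3, and the open diamond is DMSO replicate 1 in medium. With AH236 in medium the upper 2 IDs lie above all DMSO libraries and the lower 2 below all of them, and the diamond reaches 42.9 CPM for ENSRNOG00000008676.

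Abundant transcripts were called higher more often than lower. Among the 3163 genes averaging 6 log2 CPM or more, 331 were called higher in both fits and 63 lower, or 10.5% and 1.99%. The median log2 fold change of these 331 was 0.26. Between 4 and 6 log2 CPM the split was even, at 3.9% and 3.42% of 4361 genes. Between 2 and 4 log2 CPM lower calls led, with 1.96% higher and 3.06% lower, and from 0 to 2 they were 1.07% and 1.94%. Below 0 log2 CPM, 0.154% were higher and 0.693% lower.

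This split depended on the scaling. Fold changes are relative to TMM, which assumes that most genes do not change. Under scaling by library totals the median over all genes was a log2 fold change of -0.07, in place of -0.01 with TMM, and 548 genes were higher and 1419 lower with all libraries, or 548 and 959 without DMSO replicate 1. Both of those fits then called 366 genes higher and 694 lower. Among genes of at least 6 log2 CPM the shares became 5.94% higher and 5.69% lower. With RLE size factors they were 10.1% and 2.02%. The TMM factors were 1.029, 1.073 and 1.028 for AH236 and 1.098, 1.076 and 1.086 for DMSO replicates 1 to 3, and the 100 most abundant genes took 24.7%, 23.7% and 25% of counts with AH236 and 23%, 23.8% and 23.5% with DMSO. Whether more genes rose than fell with AH236 therefore depended on the scaling.

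**Figure D4:**
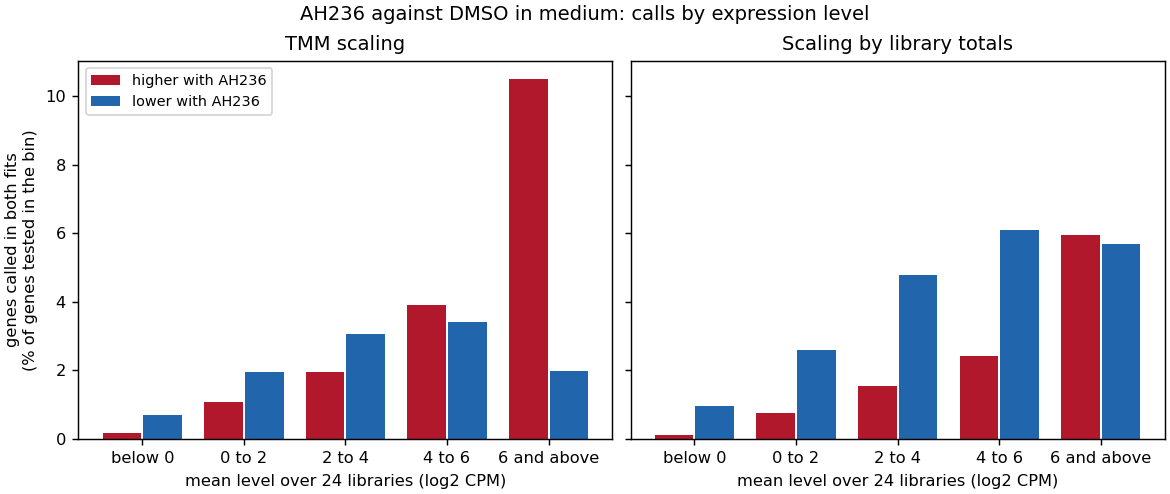
Share of the genes tested in each bin of mean log2 CPM that were called higher (red) or lower (blue) with AH236 than with DMSO in medium, in both the fit with and the fit without DMSO replicate 1, under TMM scaling (left) and under scaling by library totals (right). At 6 log2 CPM and above, higher calls are 10.5% under TMM and 5.94% under library totals.

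The libraries in glutamate gave the same contrast without any library in common. There cultures had received 250 μM glutamate with AH236 or with DMSO, and 981 genes were higher and 652 lower with AH236, or 6.17% and 4.1% of the genes tested. The calls in both media came from the same fit, so the spread per gene was shared between them. Of the 597 genes higher with AH236 in medium, 275 were called higher in glutamate as well and 4 lower. The 275 are 46.1% of the medium calls and 28% of the glutamate calls. Of the 380 lower in medium, 85 were lower in glutamate and 11 higher, and the 85 are 22.4% of the medium and 13% of the glutamate calls. In glutamate, higher calls were again commonest among abundant genes, at 16.5% from 6 log2 CPM upwards, and 173 of the 331 genes higher in medium were among them. Lower calls in glutamate made up 1.99% there, 5.87% between 4 and 6 log2 CPM and 7.44% between 2 and 4. Under library totals 37.4% of the higher and 32.1% of the lower calls in medium were repeated in glutamate, where 2.67% and 9.02% of all genes were called.

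Effects in glutamate were smaller for the genes chosen in medium. The 597 genes had a median log2 fold change of 0.18 in glutamate, with quartiles of 0.09 and 0.30, and 525 of them were above 0. The 380 had a median of -0.14, with quartiles of -0.30 and -0.02, and 300 were below 0. Over all genes the median was -0.01. Genes picked for their size in one comparison tend to be smaller in another, so these medians do not compare the media. Among the 53 genes called higher with the 6 medium libraries alone, 31 (58.5%) were called higher in glutamate and 0 lower. Over all genes 6.17% were called higher. Their median level was 6.06 log2 CPM, and from 6 log2 CPM upwards 16.5% of genes were called higher. Of the 34 called lower, 14 (41.2%) were called lower in glutamate and 1 higher, where 4.1% of all genes were called lower. Their median level was 4.51 log2 CPM, and between 4 and 6 log2 CPM 5.87% were called lower.

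Single libraries moved the calls in glutamate. Their number, 1633 (10.3%) with all libraries, was 2530 (15.7%), with 1506 (9.34%) higher and 1024 (6.35%) lower, when DMSO replicate 1 of the medium group was dropped. With glutamate libraries dropped in turn, it was 801 for DMSO replicate 1, and 966 and 876 for AH236 replicates 1 and 3.

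**Figure D5:**
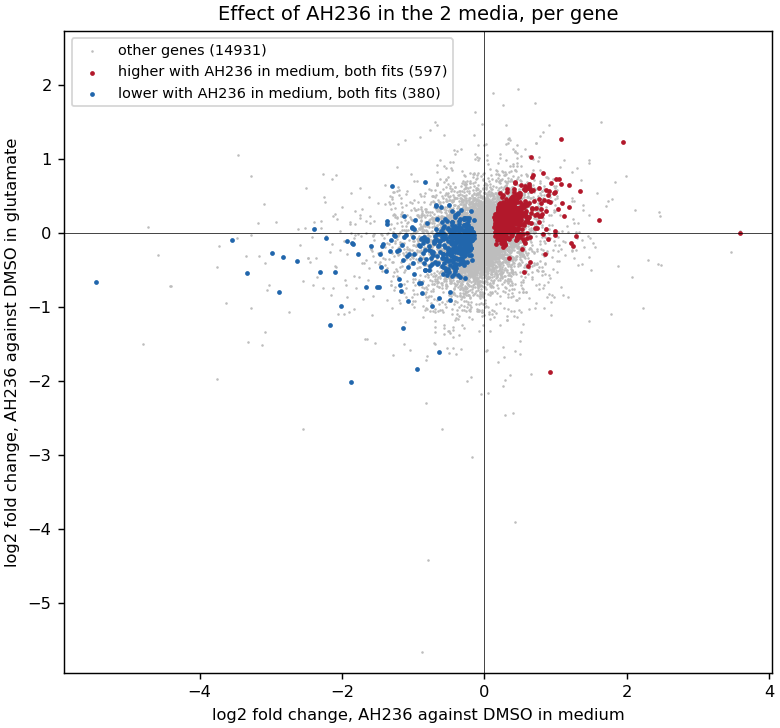
Log2 fold change of each gene for AH236 against DMSO in medium (x axis) and in glutamate (y axis), from the fit of all 24 libraries; red and blue points are the genes called higher and lower in medium with and without DMSO replicate 1. Of the 597 red points 525 lie above 0 on the y axis, and of the 380 blue points 300 lie below 0.

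Whether the effect of AH236 differed between the media was tested by the interaction term. It called 246 genes, or 1.55% of those tested, of which 140 (0.88%) had a higher log2 fold change in glutamate than in medium and 106 (0.666%) a lower one. Which direction held more calls was not stable: 234 (1.45%) were higher and 262 (1.63%) lower without DMSO medium replicate 1, 281 and 306 with voom quality weights, and 105 and 105 under library totals. The named IDs were picked for large changes in medium, which the interaction term subtracts. That choice favours differences opposite to the change in medium. Among the named IDs the term called ENSRNOG00000007816, whose log2 fold change was -0.17 ± 0.16 (SE) in glutamate and 1.24 ± 0.27 in medium. This was a difference of -1.41 ± 0.31 (SE; edgeR adjusted p = 0.021). Without DMSO replicate 1 it was -1.48 ± 0.36 (SE; edgeR adjusted p = 0.0163). For ENSRNOG00000016163 the difference was -1.43 ± 0.42 (SE; adjusted p = 0.104), and -2.23 ± 0.39 without DMSO replicate 1 (adjusted p = 0.00357). ENSRNOG00000008676 had a difference of 3.45 ± 0.95 (SE; adjusted p = 0.0834), and of 1.38 ± 0.35 without that library (adjusted p = 0.0407). For ENSRNOG00000030111 the difference was 0.93 ± 0.61 (SE; adjusted p = 0.537), with a 95% interval of -0.35 to 2.21. Without that library it was 0.08 ± 0.31 (SE; adjusted p = 0.947), with an interval of -0.56 to 0.72. The number of interaction calls was 496 (3.08%) without DMSO medium replicate 1, and 487 and 385 without DMSO medium replicates 2 and 3. It was 93, 141 and 118 without AH236 medium replicates 1 to 3, 112, 140 and 82 without AH236 glutamate replicates 1 to 3, and 77 and 163 without DMSO glutamate replicates 1 and 2.

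Genes that respond to glutamate were picked from IS141 and AH609 cultures, which share no library with the AH236 and DMSO cultures, and were then read in AH236 against DMSO in medium. Glutamate raised 1425 genes at least 2-fold there and lowered 877. These calls came from the same fit, so the spread per gene was shared with the AH236 contrast. The mean level of the 1425 raised genes was 0.77, 0.98 and 0.80 log2 CPM in AH236 and 1.25, 0.78 and 0.79 log2 CPM in DMSO replicates 1 to 3. DMSO replicate 1 was the highest, and the AH236 libraries overlapped the range of the other 2 DMSO libraries. Their median log2 fold change with AH236 was -0.05 with DMSO replicate 1 and 0.08 without it, and 4.42% were called higher in both fits and 2.53% lower, where 3.75% and 2.39% of all genes tested were. The single fits went opposite ways. With all libraries 5.68% of the raised genes were called higher and 7.02% lower, where 5.55% and 4.95% of all genes were. Without DMSO replicate 1 the shares were 8.77% higher and 2.95% lower, where 5.4% and 3.44% of the genes in both fits were. The filter on low counts covered glutamate libraries too, so a raised gene could pass it through those libraries alone. The shares over all genes were not matched to the low level of this set in medium.

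The 877 genes that glutamate lowered had mean levels of 2.14, 2.16 and 2.15 log2 CPM in AH236 and 2.3, 2.27 and 2.25 log2 CPM in DMSO replicates 1 to 3. All AH236 libraries lay below all DMSO libraries, by about the same amount with and without DMSO replicate 1. The median log2 fold change was -0.10, and -0.09 without it. In both fits 3 of the 877 were called higher and 42 lower, or 0.342% and 4.79%. Over all genes tested the shares were 3.75% and 2.39%. Between 2 and 4 log2 CPM they were 1.96% and 3.06%, and from 0 to 2 they were 1.07% and 1.94%. Read from the other side, 56.1% of the 597 genes higher with AH236 in medium were raised by glutamate in those cultures at any fold, where 34.8% of all genes were, and 24.8% were lowered, where 35.9% of all genes were. Of the 380 genes lower with AH236, 50% were lowered by glutamate and 31.1% raised. Of the 597 higher genes, 331 averaged 6 log2 CPM or more, and these shares were not matched for level. Under library totals 43.7% of the higher genes were raised, against 23.2% of all genes, and 63.1% of the lower genes were lowered, against 49.2%.

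AH236 was also set against the other agents in medium, in comparisons that hold no DMSO library. Doses are not given for any of them, so the levels cannot be taken as those at matched doses. Against IS141, 657 genes were higher (4.13%) and 593 lower (3.73%) with AH236, together 7.86% of the genes tested. That split was 572 and 615 with RLE factors and 298 and 918 under library totals. At least 2-fold, 3 rose and 100 fell, against 6 and 194 without DMSO replicate 1, and 5 and 162 with the compared groups alone. Against AH609, 0 genes were higher (0%) and 8 lower (0.0503%), and 1000 genes had an unadjusted p under 0.05, while DESeq2 called 1 higher and 18 lower. Both counts moved when DMSO replicate 1 left the shared fit. Without it they were 2324 (14.4%) for IS141, with 1142 (7.08%) higher and 1182 (7.33%) lower, and 50 higher (0.31%) and 206 lower (1.28%) for AH609, and with the compared groups alone they were 2087 and 208. For IS141 the count was 486 and 527 without AH236 replicates 1 and 3, and 805, 634 and 660 without IS141 replicates 1 to 3. For AH609 it was 2, 5 and 4 without AH236 replicates 1 to 3, and 5 and 3 without AH609 replicates 2 and 3.

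The named IDs show both kinds of outcome. For ENSRNOG00000008676 the log2 fold change without DMSO replicate 1 was -2.51 ± 0.26 against IS141 (SE; edgeR adjusted p = 4.19e-06) and -1.85 ± 0.28 against AH609 (SE; edgeR adjusted p = 0.00248), and with all 24 libraries the adjusted p-values were 0.0871 and 0.842. ENSRNOG00000030111 differed by -1.64 ± 0.41 from IS141 (SE; edgeR adjusted p = 0.0208) and by -0.87 ± 0.44 from AH609 (SE; edgeR adjusted p = 0.83). Without DMSO replicate 1 these adjusted p-values were 1.16e-06 and 0.0329. AH236 thus had the lowest level of these 2 IDs among the 4 treatments in medium. Both IDs were picked as low in these same AH236 libraries, which favours low values and small p-values here. For ENSRNOG00000016163 no difference from either agent was called, with 95% intervals of -1.14 to 0.04 against IS141 and -0.87 to 0.35 against AH609. Without DMSO replicate 1 these were -0.98 to -0.11 (edgeR adjusted p = 0.0889) and -0.71 to 0.19 (edgeR adjusted p = 0.794). For ENSRNOG00000007816 the intervals were -0.67 to 0.25 against IS141 and -0.24 to 0.75 against AH609, and -0.68 to 0.26 and -0.26 to 0.77 without DMSO replicate 1.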

How the data were processed

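RNA was sequenced from 24 libraries of rat cortical cells. Groups came from the titles, as did replicate numbers where a title held one. Titles with no number were called replicate 1. The titles AH236_glutamate2 and AH236_glutamate_2 carry the same number, and the latter was called replicate 3. The authors deposited raw, whole-number counts for Ensembl gene IDs. RSEM 1.3.3, STAR 2.7.8a, FastQC 0.11.8, cutadapt 2.3 and bcl2fastq are listed with build Rnor_6.0, per the submitters' processing notes, without their roles. Annotation and strandedness: not given in the sources used here. Since RSEM yields estimates, the whole numbers may be rounded, and genes that share reads with copies or overlapping genes are uncertain.

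Counts were tested in R 4.3.3 with edgeR 4.0.16 (filterByExpr, TMM, robust dispersions, quasi-likelihood F test), in 1 fit of 24 libraries with 8 group means and 16 residual degrees of freedom. Benjamini-Hochberg adjustment covered every gene tested, and calls were made under 0.05. Standard errors are the log2 fold change divided by the root of F. Log2 CPM used a prior count of 2. Alternatives were DESeq2 1.42.0, limma 3.58.1 voom with quality weights, other scalings, filters and sets of libraries, and a replicate block.

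The comparison, gene sets and tests were chosen with earlier results of these data known. The 43 gene lists drawn up for the analysis gave no result, since no ID had a symbol. Without symbols, the rule for named genes took 2 IDs per direction: mean of at least 1 log2 CPM over all 24 libraries, called with the same sign in both fits, all AH236 libraries beyond DMSO replicates 2 and 3, ranked by the smaller fold change.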

Additional observations from a re-analysis of the deposited data

Results flagged for a closer look

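The effect of AH236 differed between glutamate and medium for 246 genes by the interaction test, of 15908 tested. The count was 496 without DMSO medium replicate 1, 18 with the 4 groups fitted alone, and 396 with those groups alone and without that library. Among the named IDs, ENSRNOG00000007816 differed by -1.41 on the log2 scale, with levels of 4.79 ± 0.185 CPM in AH236 and 5.40 ± 0.544 CPM in DMSO cultures in glutamate, and of 0.946 ± 0.129 CPM in AH236 and 0.403 ± 0.0845 CPM in DMSO cultures in medium (SD, n = 3 each). That ID was picked for its rise in medium, which favours such a difference.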

How the results depend on the processing

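For AH236 against DMSO in medium, 883 higher and 788 lower calls became 548 and 1419 under library totals, 53 and 34 with the compared groups alone, and 730 and 475 with those groups alone without DMSO replicate 1. Rises and falls of at least 2-fold, 22 and 137, became 46 and 69 with voom quality weights, 3 and 3 with the groups alone, and 44 and 27 with those alone without DMSO replicate 1. Leaving out 1 compared library gave 557 to 1050 higher, 377 to 1179 lower, 20 to 49 rises and 39 to 284 falls. Calls made both with and without DMSO replicate 1, 597 and 380, became 366 and 694 under library totals, 1075 and 776 with voom weights and 53 and 34 with the groups alone, and ran from 255 to 642 and from 117 to 307 with 1 other library left out. In glutamate the 1633 calls ran from 801 to 2530 with 1 library left out. The 246 interaction calls became 429 with DESeq2, 587 with voom weights, 18 with the groups alone and 396 with those alone without DMSO replicate 1, and ran from 77 to 496. Against IS141, 1250 calls became 3370 with voom weights and 2087 with the groups alone, and ran from 486 to 2324. Against AH609, 8 became 19, 284 and 208 with DESeq2, voom weights and the groups alone, and ran from 2 to 256. Where the groups compared hold no DMSO medium library, the fit alone without it is the fit alone. The cause of these shifts was not tested.

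The replicate number as a block gave 841 higher and 700 lower calls, 21 and 104 at least 2-fold, 1570 in glutamate, 215 for the interaction, 1182 against IS141 and 8 against AH609. Same-numbered AH236 and DMSO libraries deviated from their group means with correlations of -0.065, 0.046 and -0.121. With so few libraries per group and DMSO replicate 1 apart, these values cannot show whether same-numbered libraries shared a culture. Not every library correlated best with its own number. All named IDs kept their sign under the alternatives run, and their 4 calls were lost only with the groups alone.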
